A study of Mus musculus with 3 samples.

Results

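RARβ peaks at weakly marked H3K4me3 sites in the caudate putamen of mice were examined. A RARβ peak was included when it shared at least 1 bp with an H3K4me3 peak holding fewer than 100 H3K4me3 tags per kb of its length, where a tag is 1 aligned read kept by the peak caller. By this rule 1324 of the 8075 RARβ peaks were included, a share of 16.4% (Wilson 95% interval 15.6 to 17.2), or 25.2% of the 5244 RARβ peaks that overlapped any H3K4me3 peak. The members were therefore chosen by the tags and the length of their H3K4me3 peak, and those values are given as a description only. In 4 cases a member overlapped 2 H3K4me3 peaks, and the one with more shared bases was used.

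The data came from chromatin immunoprecipitation and sequencing (ChIP-seq) with 1 library per antibody, anti-RARbeta and anti-H3K4me3, made from the caudate putamen, a part of the striatum, of male wild type mice. The mice were of a mixed C57BL/6J and 129SvEms/j background, and both libraries share this strain, sex, genotype and region. Ages and the number of animals pooled per library are not given in the sources used here. An anti-GFP library of the same tissue was not analysed here as a sample of its own. The control library that the peak caller was given for fold enrichment, score and FDR is not identified by antibody in the sources used here. Whether it is the anti-GFP one is not known. With 1 library per antibody no value has a replicate error and no test between conditions can be made. Intervals cover counting error only, since peaks of 1 library are not independent replicates. Tags carry no molecular identifiers, and PCR copies were limited only by keeping at most 1 tag per position.

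RARβ is a nuclear receptor. It pairs with a retinoid X receptor, binds response elements built from repeats of a short motif, holds corepressors without ligand and recruits coactivators when retinoic acid is bound. Its gene is strongly expressed in the striatum, a brain region that controls movement. H3K4me3, histone H3 trimethylated at lysine 4, is densest around the start sites of active genes. Low levels of the mark are also seen at some enhancers and, in a tissue of many cell types, at start sites used in few of the cells. Sites are named by their position in build mm9 because no gene is attached to a peak here. Which of these kinds of element a site belongs to was not tested.

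The weakly marked sites were short and shallow in the H3K4me3 library. Their H3K4me3 peaks held 33 to 703 tags with a median of 101, over a median width of 1398 bp (lowest 569, highest 7642). The median density was 71.5 tags per kb, with quartiles of 62.1 and 82.8. The authors' H3K4me3 fold enrichment is the tag pileup over the background estimated by the peak caller. It had a median of 5.66 and a highest value of 14.8. Densely marked sites, those with 300 or more H3K4me3 tags per kb, numbered 2965 RARβ peaks, and there the H3K4me3 medians were 1891 tags, 4125 bp and a fold enrichment of 30.7. Between these limits lay 955 further RARβ peaks, called intermediate here. The authors' empirical FDR, a percentage of peaks expected to be false, was 10.39% to 21.56% at the H3K4me3 peaks of the members, so at a limit of 5% none of the members would be counted, while 99.3% of the RARβ peaks at dense sites would be. The library held 47461843 H3K4me3 tags after filtering and the RARβ library 2237580, a ratio of 21.2. The FDR of the RARβ peaks was much lower, with a median of 0.09%. The 4 members above 5% are all among the 10 with the most RARβ tags.

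RARβ tag numbers at these sites had a median within 1 tag of each other class. The members held 7 to 71 RARβ tags with a median of 10 (order-statistic 95% interval 9 to 10) and quartiles of 8 and 14. The median was 10 over all RARβ peaks, 9 at intermediate sites, 11 at dense sites and 9 outside H3K4me3 peaks. The fewest tags in the list were 7, and 21.1% of the members stood at that floor, near the 21.8% of all RARβ peaks. The share was 21.7% at intermediate sites, 14.6% at dense sites and 29.8% outside. Per length, the members held a median of 15.2 RARβ tags per kb of RARβ peak, against 15.4 at dense sites. H3K4me3 tags, which entered the rule for the classes, had medians of 1891 at dense and 101 at weak sites. RARβ tags had medians of 11 and 10 there, in a list with no peak under 7 tags.

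Of the members, 148 had 20 or more RARβ tags, a share of 11.2% (Wilson 95% interval 9.59 to 12.99). Over all RARβ peaks the share was 11.1%, so the members were near the background of the list. It was 14.1% at dense sites (12.9 to 15.4), 12.6% at intermediate sites (10.6 to 14.8) and 7.31% outside (6.41 to 8.33). The intervals of weak and dense sites overlap slightly, and those of weak sites and sites outside do not meet. At 30 tags or more were 44 members, or 3.32%, near the 3.33% of all RARβ peaks, beside 3.35% at intermediate and 4.08% at dense sites.

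Fold enrichment and score of RARβ, both from the authors' peak caller, were higher at weak sites than at dense ones. The median RARβ fold enrichment was 23.2 at weak sites, 19.4 at intermediate sites, 17.9 at dense sites and 21.9 outside. Quartiles overlapped, at 19.16 to 30.65 for weak and 13.4 to 23.2 for dense sites. A score of 100 or more, where the score is -10 times the log10 of the peak's p-value, was reached by 473 members. That is 35.7% (Wilson 95% interval 33.2 to 38.3), beside 27.4% of all RARβ peaks and 27.6% of those at dense sites (26.0 to 29.2). Tag numbers gave the opposite order, with a median of 10 at weak and 11 at dense sites. Fold and score are set against a background estimated by the peak caller, and tag numbers are not. The median RARβ fold at weak sites had an order-statistic 95% interval of 23.21 to 23.21, so members around it shared this value. The background behind such repeated values was not identified, and its part in the difference between weak and dense sites was not tested.

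**Figure D1:**
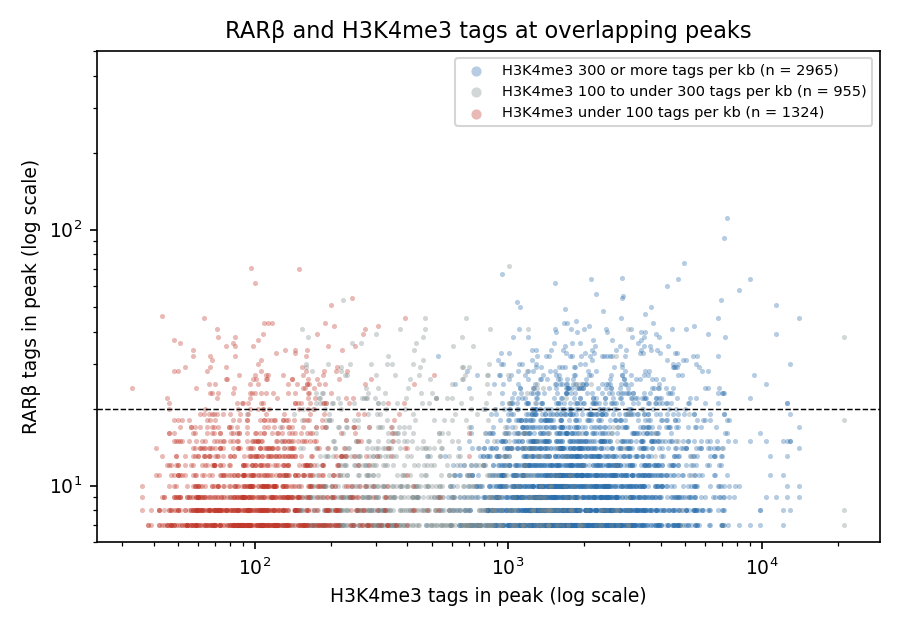
RARβ tags (vertical, log scale) against H3K4me3 tags (horizontal, log scale) at the 5244 overlapping RARβ peaks, 1 point per RARβ peak, coloured by the density of the H3K4me3 peak; the dashed line marks 20 RARβ tags. The 1324 weakly marked sites lie between 33 and 703 H3K4me3 tags and reach up to 71 RARβ tags, and the densely marked sites reach up to 111.

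The ratio of RARβ to H3K4me3 tags contains the H3K4me3 tags that chose the members, and is given as a description. The median ratio was 0.105 at weak sites (quartiles 0.0729 and 0.152), 0.0268 at intermediate sites and 0.00604 at dense sites. Scaled to the filtered tags of each library, the median ratio was 2.23 at weak sites and 0.128 at dense sites. The scaled ratio was 1 or more at 1206 members (91.1%), at 220 of the 955 intermediate sites (23.0%) and at 3 of the 2965 dense sites (0.101%). No RARβ peak had fewer than 7 tags, so a site with few enough H3K4me3 tags reaches 1 whatever its RARβ signal. These shares therefore follow in large part from the density rule and that floor. In unscaled tags, 14 members had a ratio of 0.5 or more, and in 1 of them the RARβ tags outnumbered the H3K4me3 tags.

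That site lay on chromosome 6 at 37150150 to 37151229. It held 46 RARβ tags (Poisson 95% interval 33.7 to 61.4) and 43 H3K4me3 tags (31.1 to 57.9), a ratio of 1.07 whose 2 counts overlap in their intervals. Its H3K4me3 peak was 835 bp wide with a fold enrichment of 3.94, while RARβ was enriched 112-fold, at a RARβ FDR of 5.26%. The next dense H3K4me3 peak was 89.9 kb away. Second by ratio was a site on chromosome 9 at 58194000 to 58195157, with 37 RARβ tags on 48 H3K4me3 tags, a ratio of 0.771. The third was the member with the most RARβ tags, on chromosome 1. On chromosome 8, the fourth site at 122371184 to 122372319 had 24 RARβ tags on the narrowest H3K4me3 peak of all members, 569 bp with 33 tags. The fifth, on chromosome 12 at 4095229 to 4096148, held 45 RARβ tags on 63 H3K4me3 tags.

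The member with the most RARβ tags lay on chromosome 1 at 169502458 to 169503770. It had 71 tags (Poisson 95% interval 55.5 to 89.6) and a fold enrichment of 142, the highest of the members, on an H3K4me3 peak with 97 tags and 77.5 tags per kb. Its summit lay 433 bp from the H3K4me3 summit, its next dense H3K4me3 peak 23.5 kb away, and its next RARβ summit 179 kb away. Next was a site on chromosome 6 at 71518469 to 71520164 with 70 RARβ tags (54.6 to 88.4) on 150 H3K4me3 tags. The intervals of these 2 sites overlap almost wholly, so their order is not resolved. A site on chromosome 7 at 99403607 to 99405359 followed with 62 RARβ tags on 100 H3K4me3 tags, 15.7 kb from the next dense peak.

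Other sites among the 10 with the most RARβ tags differed in their surroundings. On chromosome 17, the site at 79017282 to 79019198 held 54 tags and lay 106 kb from a dense H3K4me3 peak, with another RARβ summit only 1.31 kb away. On chromosome 2, the site at 130481783 to 130484162 held 51 tags and was the widest RARβ peak of the members at 2380 bp, with its summit 100 bp from that of the mark. The second site on chromosome 17, at 3496287 to 3497668, held 45 tags in a weak H3K4me3 peak of 4926 bp, the widest among the 10, and lay 6.84 kb from a dense one. Both sites on chromosome 15, at 25439659 to 25440521 and at 75612432 to 75613298, held 43 tags, with the next RARβ summit 175 and 166 kb away. In all, 4 members held exactly 43 tags, and 2 of them are named by the order of position. The 10 sites ranged from 51.5 to 95.8 H3K4me3 tags per kb, so strong RARβ peaks were found over nearly the whole range of weak marking. Their H3K4me3 FDR was 11.92% to 21.01%. The RARβ FDR was 16.67%, 11.11% and 6.25% at the 3 sites with the most tags, on chromosomes 1, 6 and 7. The RARβ scores of these 3 sites were 900, 807 and 570, against a median of 81.8 over the members. A high FDR there thus went with a high score and does not mark a weak RARβ peak, and its cause was not tested. Of the 10 sites, 4 had a RARβ FDR above 5%, against a median of 0.09% over the members.

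Within the weak class, the median RARβ tag number varied by 1 tag with the density of the mark, while the share of strong RARβ peaks was larger at the upper end. The median was 9 RARβ tags (order-statistic 95% interval 9 to 9) at the 262 members with under 60 H3K4me3 tags per kb and 10 (9 to 12) at the 164 with 90 to under 100. The share with 20 or more RARβ tags was 7.25% (Wilson 95% interval 4.69 to 11.0) in the first of these bands and 16.5% (11.6 to 22.9) in the last, with 10.8%, 12.6% and 10.6% in the 3 bands between, from lower to higher density. The intervals of the first and the last band do not meet, and those of the middle bands overlap both. By width of the H3K4me3 peak the share was 8.79% (5.48 to 13.8) under 1000 bp and 7.55% (5.69 to 9.95) at 1000 to under 1500 bp. It was 14.2% (10.8 to 18.3) at 1500 to under 2000 bp and 18.8% (14.1 to 24.7) at 2000 bp or more. The interval under 1000 bp overlaps those of the bands up to 2000 bp. Across the 1324 members, Spearman's rho of RARβ tags was 0.056 with density, 0.134 with width and 0.117 with H3K4me3 tags. These describe positions that share 2 libraries, and wider peaks are also denser ones.

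The 3 named sites on each side of the density limit were apart in RARβ fold enrichment, more so than their classes. Their RARβ tags overlapped, at 12 inside and 11 to 18 outside. Just inside were 3 sites with 99.8 to 99.9 H3K4me3 tags per kb, each with 12 RARβ tags. They were 92907089 to 92907809 of chromosome 10, 101534415 to 101535143 of chromosome 11 and 137279195 to 137279727 of chromosome 4. Just outside, at 100.1 tags per kb, were 98591206 to 98592000 of chromosome 7 with 18 RARβ tags, 68534992 to 68535719 of chromosome 9 with 11 and 119073459 to 119074474 of chromosome 2 with 16. RARβ fold enrichment was 23.0 to 34.8 at the 3 sites just inside and 8.37 to 14.6 at the 3 just outside. The latter lie below the lower quartile of all intermediate sites, whose quartiles were 15.48 and 27.08. Class medians were 23.2 at weak and 19.4 at intermediate sites, so these few sites do not show a step at the limit.

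Seen from the mark, few weak H3K4me3 peaks carried RARβ, but at equal width they carried it more often than intermediate ones. The list held 15582 H3K4me3 peaks under 100 tags per kb, of which 1275 touched a RARβ peak. That is 8.18% (Wilson 95% interval 7.76 to 8.62), beside 13.1% of all H3K4me3 peaks, 8.90% of intermediate and 24.2% of dense ones. Per Mb of marked length, RARβ summits numbered 62.8 in weak peaks (Poisson 95% interval 59.3 to 66.4), 42.2 in intermediate peaks (39.5 to 45.0) and 74.8 in dense peaks (72.1 to 77.6). The order by length thus placed weak peaks between dense and intermediate ones, with intervals that do not meet.

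Weak peaks are narrow, so bands of equal width were compared, a comparison chosen after the data had been seen. Among peaks of 1500 to under 2000 bp, 321 of 2024 weak peaks held RARβ, or 15.9% (Wilson 95% interval 14.3 to 17.5). Of 3000 intermediate peaks of that width 233 did, or 7.77% (6.86 to 8.78), and of 475 dense peaks 49 did, or 10.3% (7.89 to 13.4). The weak share was 2.04 times the intermediate one (95% interval 1.74 to 2.39) and 1.54 times the dense one (1.16 to 2.04). Counting only RARβ peaks with a score of 100 or more, the shares were 6.32%, 2.27% and 1.47%, ratios of 2.79 and 4.29, the latter resting on 7 dense peaks. In peaks of 2000 to under 3000 bp the shares were 16.9% of weak, 11.7% of intermediate and 16.1% of dense peaks, so that weak and dense overlapped there, at a ratio of 1.05 (0.883 to 1.25). Weak peaks were above intermediate ones in each of the 4 bands from 1000 to under 5000 bp, by ratios of 1.45 to 2.32, and above dense ones beyond counting error only from 1500 to under 2000 bp. At 800 to under 1000 bp the weak share of 4.33% (3.73 to 5.03) and the intermediate one of 3.14% (1.35 to 7.15), from 159 peaks, overlapped. One control library served both peak lists, and its part in this pattern was not tested.

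**Figure D2:**
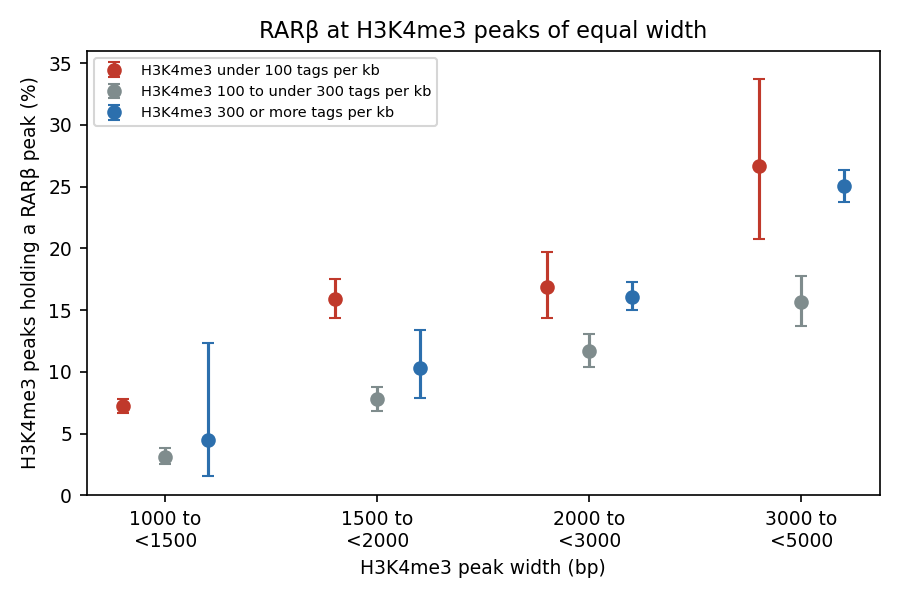
Share of H3K4me3 peaks that hold a RARβ peak (percent, vertical) in bands of H3K4me3 width (bp, horizontal), for weak (under 100 tags per kb), intermediate and dense peaks; points are shares and bars are Wilson 95% intervals. Weak peaks stand above intermediate ones in the 4 bands drawn, with 15.9% against 7.77% at 1500 to under 2000 bp. Their intervals overlap those of dense peaks in the other 3 bands.

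Weak H3K4me3 peaks with RARβ were somewhat larger than weak peaks without it. Their median width was 1377 bp (order-statistic 95% interval 1347 to 1408) against 1140 bp (1133 to 1147) at the 14307 weak peaks with none, and their median tag number 99 against 80. Densities were closer, at 71.2 and 68.3 tags per kb, and H3K4me3 fold enrichments were 5.59 and 5.33. Occupancy per length inside the weak class was higher in wider peaks up to 2000 bp, from 39.8 RARβ summits per Mb (Poisson 95% interval 33.4 to 47.0) at 800 to under 1000 bp to 56.9 (52.3 to 61.9) at 1000 to under 1500 bp and 95.1 (85.1 to 106) at 1500 to under 2000 bp. Above that width it was 76.5 (64.2 to 90.4) at 2000 to under 3000 bp and 89.8 (68.0 to 116) at 3000 to under 5000 bp, with overlapping intervals. The share of weak peaks holding RARβ was 15.9%, 16.9% and 26.7% in these last 3 bands.

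Most weak peaks with RARβ held a single RARβ peak. The 1324 members had 1270 H3K4me3 peaks as partners, of which 1219 held 1 member, 48 held 2 and 3 held 3. The last, chosen after their values were seen, included an H3K4me3 peak on chromosome 12 at 107711968 to 107713742 with RARβ peaks of 8, 12 and 20 tags. The others lay on chromosome 16 at 96706740 to 96711034, with RARβ peaks of 7, 10 and 7 tags, and on chromosome 7 at 108561550 to 108565805, with 7, 21 and 14.

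RARβ summits lay close to the H3K4me3 summits at weak sites. The median distance was 259.5 bp (order-statistic 95% interval 245 to 273), with quartiles of 120 and 422 bp and a highest value of 3956 bp. It was 326 bp at intermediate and 451 bp at dense sites, whose H3K4me3 peaks are wider. As a share of H3K4me3 width the order was the reverse, with medians of 17.8% at weak, 13.2% at intermediate and 10.9% at dense sites. Within 500 bp lay 80.4% of the members (Wilson 95% interval 78.2 to 82.5) and 53.7% of the RARβ peaks at dense sites. The RARβ summit was inside the weak H3K4me3 peak at 1241 members (93.7%), and the whole RARβ peak was inside it at 916 (69.2%), against 99.1% at dense sites.

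The spread of these distances differed between the classes. From 0 to under 100 bp lay 21.5% of the members, from 100 to under 200 bp 17.2%, from 200 to under 300 bp 19.9% and from 300 to under 400 bp 14.0%. At dense sites the same steps held 16.9%, 10.7%, 8.09% and 9.88%. The H3K4me3 summit lay on the side of the nearest dense H3K4me3 peak at 640 of 1323 members, or 48.4% (45.7 to 51.1), an interval that includes an even split. Members with 20 or more RARβ tags had a median distance of 273 bp (239 to 333) and those with 7 tags 232 bp (209 to 272), intervals that overlap.

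**Figure D3:**
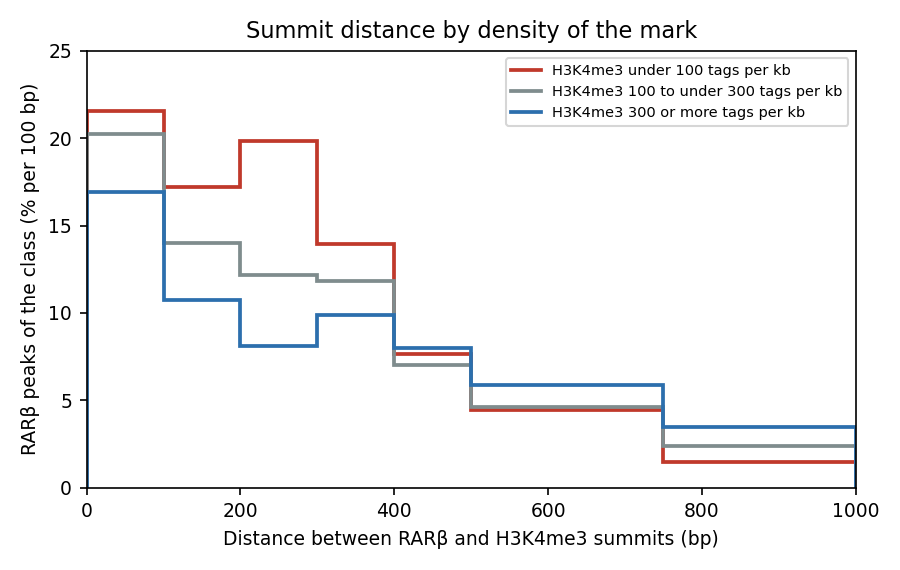
Distance between the RARβ and the H3K4me3 summit (bp, horizontal) as the percent of RARβ peaks per 100 bp (vertical), for the 3 classes of H3K4me3 density; distances of 1000 bp or more are not drawn. Weak sites hold 19.9% of their peaks at 200 to under 300 bp, where dense sites hold 8.09%.

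Weakly marked RARβ sites were mostly far from dense marking. The gap from the RARβ peak to the next H3K4me3 peak of 300 or more tags per kb had a median of 46.9 kb (order-statistic 95% interval 39.9 to 51.4) and quartiles of 16.02 and 112 kb. Only 17 members (1.28%) had a dense peak within 1 kb, 126 (9.52%) within 5 kb and 225 (17.0%) within 10 kb, while 945 (71.4%) had one within 100 kb. RARβ peaks at intermediate sites had a median gap of 42.5 kb (39.2 to 46.4), overlapping that of weak sites. RARβ peaks outside the mark lay farther off, at 79.4 kb (73.4 to 84.7). Measured from the edge of the H3K4me3 peak, weak peaks with RARβ had a median gap of 46.9 kb (41.0 to 51.3) and weak peaks without it 53.4 kb (52.0 to 55.2), intervals that do not meet. Within 5 kb of a dense peak were 10.2% of the former (8.65 to 11.98) and 9.48% of the latter (9.01 to 9.97), which overlap. Over 100 kb away were 28.9% (26.5 to 31.5) and 32.6% (31.8 to 33.4), which do not. Among members the median gap was 67.7 kb (51.7 to 85.7) at H3K4me3 widths under 1000 bp and 32.3 kb (23.95 to 37.4) at 2000 bp or more. Weak peaks with RARβ were also wider than those without it, and the part of width in these gaps was not tested.

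**Figure D4:**
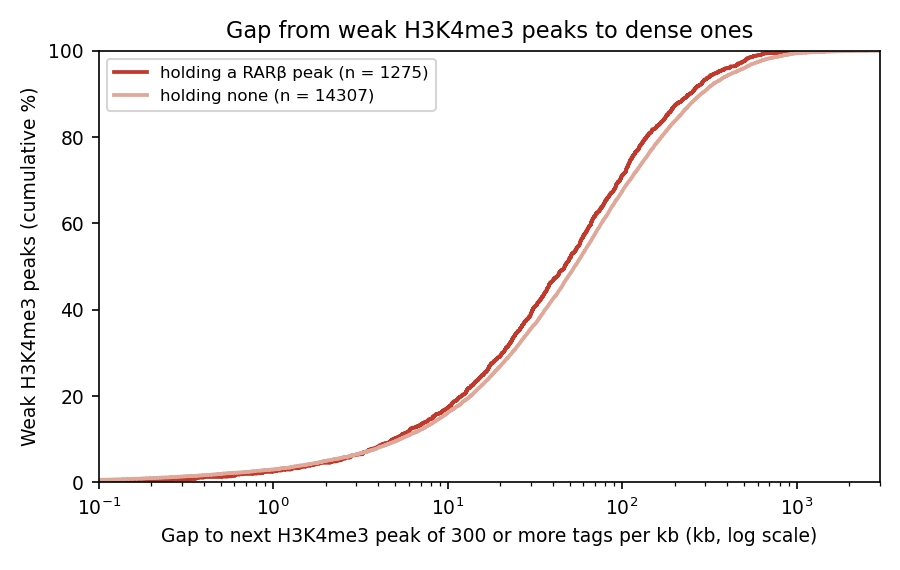
Cumulative percent of weak H3K4me3 peaks (vertical) by the gap to the next H3K4me3 peak of 300 or more tags per kb (kb, log scale, horizontal), for the 1275 that hold a RARβ peak and the 14307 that hold none. The curves run together at short gaps and part slightly beyond, with medians of 46.9 and 53.4 kb.

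RARβ tags had little relation to this gap, with Spearman's rho of -0.0296 over the 1324 members, as a description. Of the members within 10 kb of a dense peak 11.1% had 20 or more RARβ tags, of those at over 10 to 50 kb 12.3%, and of those beyond 50 kb 10.4%, all with overlapping intervals. The 5 members nearest to a dense peak were 0.17 to 0.446 kb away. The nearest was on chromosome 7 at 139998827 to 139999484 with 8 RARβ tags, 170 bp from a dense peak at 139999655 to 140006594 that held 2 RARβ peaks of its own. Also among these 5 were 54348212 to 54349796 of chromosome 7 with 26 RARβ tags and 75402104 to 75403177 of chromosome 10 with 24. The 5 members with the largest gaps were 830 to 1529 kb from a dense peak. The farthest, on chromosome 11 at 92215159 to 92215747, held 7 RARβ tags, and the second, on chromosome 12 at 64613780 to 64614330, also 7. The third, on chromosome 14 at 81042968 to 81044337, held 31 RARβ tags with a fold enrichment of 42.6, at a gap of 1054 kb.

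The dense peak nearest to a member often carried RARβ too. It held a RARβ peak for 510 of the 1324 members, or 38.5% (Wilson 95% interval 35.9 to 41.2), against 24.2% of all dense H3K4me3 peaks. This was not particular to weak sites, since the share was 36.8% (33.8 to 39.9) at intermediate sites and 35.1% (33.3 to 36.8) at RARβ peaks outside the mark. Weak H3K4me3 peaks without RARβ gave 29.1% (28.3 to 29.8), above the 24.2% of all dense peaks, and weak peaks with RARβ 38.0% (35.3 to 40.7). Among members the share was 39.1% at gaps up to 10 kb, 42.1% at over 10 to 50 kb and 35.7% beyond, with overlapping intervals. Dense peaks with RARβ were also wider than those without, at medians of 3824 and 3035 bp, and the part of width in these shares was not tested. The shares count a dense peak once per site nearest to it, while the 24.2% counts each dense peak once. The intervals do not allow for such repeats.

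Members also had RARβ neighbours. Another RARβ summit lay within 10 kb of 410 members, or 31.0% (Wilson 95% interval 28.5 to 33.5), beside 28.2% of all RARβ peaks and 31.2% at dense sites. The nearest such neighbour was itself a weakly marked site in 191 of the 410, a site outside the mark in 133, a dense site in 51 and an intermediate one in 35. Of the 191 weak neighbours, 103 lay in the same H3K4me3 peak as the member itself. In the whole list 16.4% of the RARβ peaks were at weak sites, 35.1% outside the mark, 36.7% at dense and 11.8% at intermediate sites. Among members with 20 or more RARβ tags 70 of 148 had such a neighbour, or 47.3% (39.4 to 55.3), against 28.9% (26.4 to 31.6) of the members with fewer tags. At dense sites the corresponding shares were 32.5% (28.2 to 37.2) and 30.9% (29.2 to 32.8), and outside the mark 39.6% (33.2 to 46.4) and 21.0% (19.5 to 22.6). At intermediate sites they were 41.7% (33.2 to 50.6) and 31.3% (28.2 to 34.5), and over all RARβ peaks 37.8% (34.7 to 41.1) and 27.0% (26.0 to 28.0). The share was thus larger among peaks with 20 or more tags in the whole list, weak sites included, with overlapping intervals at intermediate and dense sites. The difference between the classes was not tested.

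Weakly marked RARβ sites were rare on the X chromosome. Male mice carry X in 1 copy, and the part of copy number in this was not tested. X had 3 of the 1324 members, and 2 of its 196 weak H3K4me3 peaks held RARβ. That is 1.02% (Wilson 95% interval 0.280 to 3.64), against 8.28% (7.85 to 8.72) on autosomes. Dense and intermediate peaks of X were also less often occupied than on autosomes, at 9.62% (6.31 to 14.4) against 24.4% (23.6 to 25.3) and 3.28% (1.89 to 5.64) against 9.11% (8.54 to 9.70). Weak peaks had a median density of 68.5 tags per kb on X and on autosomes, a value bounded by the rule, and median widths of 1068 and 1155 bp. Median densities differed in the other classes. They were 225.8 on X and 155.7 on autosomes for intermediate peaks, and 337.8 and 433.6 for dense ones. The members on X held 7 to 9 RARβ tags. One lay at 92351958 to 92352578, 1.89 kb from a dense peak, and the others at 155359640 to 155360132 and 155361025 to 155361502, both in an H3K4me3 peak of 3637 bp. No member lay on Y, where the list had 2 weak H3K4me3 peaks.

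Among autosomes the occupied share of weak H3K4me3 peaks was highest on chromosome 12, where 89 of 716 held RARβ, or 12.4% (Wilson 95% interval 10.2 to 15.1). It was lowest on chromosome 18 with 6.37% (4.71 to 8.56) and chromosome 3 with 6.42% (4.98 to 8.25). The interval of chromosome 12 lies above the autosomal share of 8.28%, and that of chromosome 3 just below it, while those of the other 17 autosomes include it. Of all RARβ peaks on chromosome 12, 20.4% (17.0 to 24.4) were at weakly marked sites, about as on chromosome 8 with 20.7% (17.2 to 24.6), against 16.4% in the whole list.

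**Figure D5:**
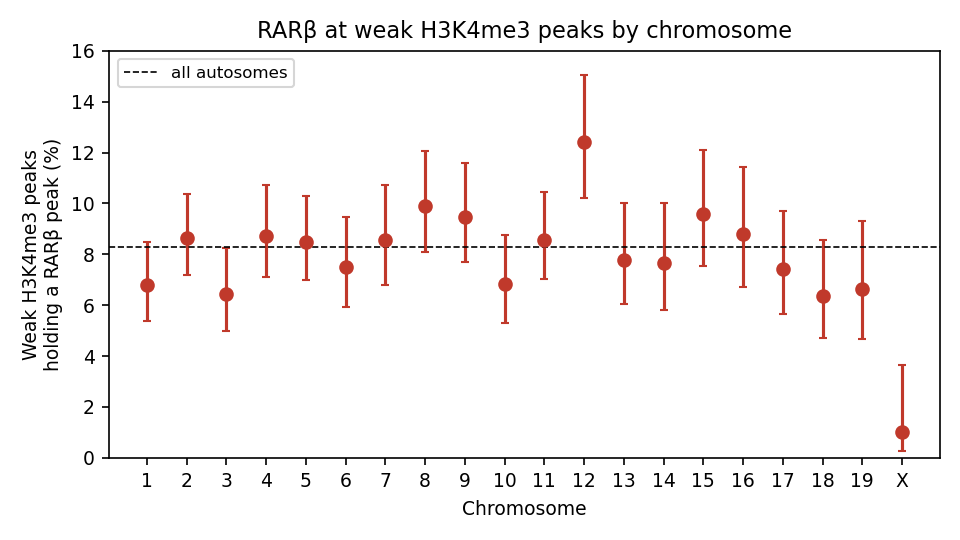
Percent of weak H3K4me3 peaks that hold a RARβ peak (vertical) on each autosome and X (horizontal); points are shares, bars Wilson 95% intervals and the dashed line the autosomal share of 8.28%. Chromosome 12 stands highest at 12.4% and X lowest at 1.02%.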

How the data were processed

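Both peak lists were made by the authors with MACS 1.4.2, 1 library at a time, at a p cutoff of 1e-05 and against the same control library, per the file headers. At most 1 tag was kept per position, which removed 55.2% of the RARβ tags. The control of 3703580 filtered tags was scaled up 12.8 times for H3K4me3. Alignment with Bowtie, base calling with CASAVA 1.8.2 and build mm9 come from the submitters' processing notes. The authors' tag counts are whole numbers, not normalized. Fold enrichment is a ratio of pileup to the background that the peak caller estimated. Fold enrichment, the score of -10 times log10 p and the empirical FDR in percent were deposited as the authors' peak caller gave them. The score's column name was lost and was read from the MACS column order. Positions, lengths and summits were used as deposited, counted from 1.

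From these, density was computed as tags per kb of peak, gaps as bases between peak edges, and Wilson, Poisson and order-statistic 95% intervals. The interval of a ratio of shares was computed on the log scale. Pairing, gaps and summit distances were checked on simulated lists. The named sites are the 10 members with the most RARβ tags, the 5 with the highest tag ratio, the 5 largest and 5 smallest gaps, and 3 on each side of the density limit. Members, lists and rules were chosen with earlier results of these data known. No sequence or annotation of build mm9 was used here, so the planned start-site and motif descriptions and gene lists were not run. Python 3.11.15, numpy 2.4.6, pandas 2.3.3, scipy 1.17.1 and matplotlib 3.10.9 were used.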

Additional observations from a re-analysis of the deposited data

How the results depend on the processing

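Of 55 alternative values, 45 planned and 10 added after seeing the data, 35 stayed within 1.5 times a count or inside the main value's 95% interval. The median of 10 RARβ tags held under 6 of 7 alternatives. With RARβ scores of 100 or more, 473 members remained, with a median of 16 tags, 31.1% with 20 or more tags and a median tag ratio of 0.157. A density limit of 75 tags per kb left 766 members with a ratio of 0.131 and a gap of 55.6 kb, and a limit of 150 gave a ratio of 0.0864. The summit distance was 244 bp with at least 0.5 of the RARβ peak covered and 244 bp with the RARβ summit inside the mark. The gap was 36.3 kb to peaks of 200 or more tags per kb and 262 kb to those of 500 or more. At equal width, weak over intermediate shares were 2.79 with scores of 100 or more, 2.45 with 20 or more tags, 1.45 at 2000 to under 3000 bp and 1.71 at 3000 to under 5000 bp. Weak over dense shares were 4.29, 3.75, 1.05 and 1.07 in the same order, and the 20-tag value rests on 3 dense peaks. Limiting H3K4me3 peaks to an FDR of at most 5% left no member, so it gave no value. The cause of these changes was not tested. No paired analysis was possible because there was 1 library per antibody. No RARβ peak of the list had fewer than 7 tags, so weaker sites are not described. The cause of this floor was not tested.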
